A study of Mus musculus with 6 samples.

Results

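The genes described here encode the folding, stress-sensing and quality-control machinery of the endoplasmic reticulum (ER). They are 37 genes taken from a list of symbols: chaperones, the sensors and transcription factors of the unfolded protein response, the components of ER-associated degradation (ERAD) and the translocation channel. All 37 were among the 17666 genes of the deposited table, and all 37 passed the filter on low counts, as did 13692 genes in all. They were measured by RNA-seq in mouse chondrocytes, 3 WT and 3 KO libraries, grouped by their titles. WT cells came from newborns (postnatal day 0) that carried Prx1-Cre and the Rosa26mT/mG reporter, and KO cells from Ppp1r15bPrx1 newborns with the same reporter, that is, with Ppp1r15b deleted by the same Cre. Cre and reporter were thus shared by both groups, and no library without Cre was analysed. Prx1-Cre is active in early limb mesenchyme, from which cartilage, perichondrium and other connective tissue of the limb derive, so the green cells sorted from digested knee joints need not all be cartilage cells. The labels' growth protocol adds that sorted chondroprogenitors were kept in DMEM until mature, a step that the series' design text leaves out. Whether the WT cells also carried a floxed allele is not stated. Nor is it stated that each library had its own animal or culture behind it: the p-values below rest on the spread among these 3 and 3 libraries, part or all of which may be technical.

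Proteins that enter the ER are threaded through the Sec61 channel, folded by chaperones of the Hsp70 and Hsp90 families and by lectin chaperones, and joined by disulfide bonds that protein disulfide isomerases make. When unfolded protein builds up, the sensors IRE1 (Ern1), ATF6 and PERK respond: IRE1 splices Xbp1 mRNA, ATF6 is cut to release a transcription factor, and PERK phosphorylates the translation factor eIF2alpha, which lowers translation and favours ATF4 and CHOP (Ddit3). Ppp1r15b encodes CReP, a subunit of the phosphatase that removes that phosphate, so its deletion touches the PERK branch downstream of the ER itself. Chondrocytes secrete large amounts of collagen and proteoglycan and are known to depend on this machinery.

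Library totals ran from 18380875 to 19643946 estimated counts. Ppp1r15b measured 86.8, 52.2 and 89.2 CPM in WT and 19.3, 23.5 and 27.5 CPM in KO, with no overlap of the groups and a log2 ratio of KO to WT of -1.70 (SE 0.242, adjusted p = 0.0297 by edgeR); the call did not hold with either WT replicate 1 or 3 left out (adjusted p = 0.168 and 0.173 by edgeR), nor with either KO replicate 1 or 2 (0.118 and 0.13). In each of those fits 0 genes of the whole table were called. KO replicate 3 stood apart from its group: across genes, log2 CPM of KO replicates 1 and 2 correlated at 0.9935, whereas KO replicate 3 reached 0.9346 with the first of them and 0.9337 with the second. Values without this library are given beside the members whose call or sign it moved, and beside some other results. All 9 cartilage markers were found in every library, at a summed 32212 to 42967 CPM in WT and 33141 to 35536 CPM in KO; 2 of the 9 rose and 0 fell, with and without KO replicate 3. Among the other marker lists, the summed levels of adipocyte, macrophage and hypertrophic chondrocyte genes did not overlap between the groups. Those of skeletal muscle, endothelial and osteoblast genes overlapped. The summed level of 7 adipocyte genes was 437 to 877 CPM in WT and 42.9 to 47.4 CPM in KO, and all 7 fell. For 7 macrophage genes it was 160.3 to 288 CPM in WT and 11.5 to 128 CPM in KO, where C1qa alone fell over the 6 libraries, and for 7 skeletal muscle genes 70.2 to 529 CPM in WT and 13.6 to 198 CPM in KO, where 0 were called. Of 5 hypertrophic chondrocyte genes 4 were tested and 3 fell (373 to 417 CPM in WT and 110.4 to 171 CPM in KO). Endothelial and osteoblast lists had 0 called (summed 3.37 to 7.62 CPM in WT and 0.713 to 7.12 CPM in KO, and 28.2 to 34.1 CPM in WT and 12.7 to 57.8 CPM in KO). Without KO replicate 3, all 7 macrophage and all 7 muscle genes fell, as did 4 endothelial, 4 hypertrophic and 3 osteoblast genes. KO replicate 3 held the highest KO sum in each of the 7 lists. Cidec, Ckm and Tie1 were at 0 in at least 1 library. The part of these cells in the results below was not tested, and in such bulk libraries fewer cells of a type and less RNA per cell cannot be told apart.

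The sequence at the centre of the IRE1 branch lies in Xbp1 (chromosome 11, 5520641 to 5525993, GRCm38.p6). IRE1 cuts the mRNA at a pair of sites 26 bases apart, and the ends are joined, which shifts the reading frame. The segment lies in exon 4 of 5 on the + strand, at chr11:5524279-5524304 (GRCm38, GENCODE vM21 transcript). It is shown because the spliced share below counts transcripts that lack it, with the removed 26 bases in capitals and the flanks in lower case (chr11:5524257-5524326).
Xbp1: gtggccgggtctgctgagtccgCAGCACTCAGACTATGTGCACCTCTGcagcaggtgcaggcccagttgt
With the segment the open reading frame held 267 codons, and with it taken out 371.

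Promoters of the ER chaperone genes are known for the ER stress response element (ERSE), which NF-Y, ATF6 and XBP1 bind. RefSeq promoter sequences (GRCm38.p6, from 250 bases before to 50 after the transcription start) were matched by gene identifier for 31 of the 37 genes; those of Atf6, Hyou1, Manf, Sec61a1, Ssr2 and Derl1 were not used here. Both strands were searched for the letters CCAAT, any 9 bases and CCACG (ERSE), for ATTGG, any base and CCACG (ERSE-II), for TGACGTGG (a core of the XBP1 element) and for TGATGCAA (1 form of the element bound by ATF4 with C/EBP proteins). ERSE letters stood in 9 of the 31 (Hspa5, Hsp90b1, Pdia6, Calr, Canx, Dnajc3, Creld2, Derl3 and Syvn1), against 0.119% of all 32851 promoters. ERSE-II letters were found in Herpud1 and Dnajb11 (0.0365% of all), the XBP1 core in Txndc5 (0.676%) and the ATF4 element in Herpud1 (0.895%). These percentages count promoters, not genes, and Txndc5 and Derl2 had more than 1 promoter searched. The XBP1 core stood in a single Txndc5 promoter (chr13:38527865-38528164) and not in its others. No motif overlapped another in these genes. The 4 promoters below are shown because their genes went different ways in KO: Hspa5 was high in a single KO library, Hsp90b1 and Calr were lower in every KO library, and Herpud1 was higher in every one. Capitals mark the fixed letters of a motif, and each sequence reads 5′ to 3′ on the strand of its gene.
Hspa5, chr2:34771840-34772139, + strand: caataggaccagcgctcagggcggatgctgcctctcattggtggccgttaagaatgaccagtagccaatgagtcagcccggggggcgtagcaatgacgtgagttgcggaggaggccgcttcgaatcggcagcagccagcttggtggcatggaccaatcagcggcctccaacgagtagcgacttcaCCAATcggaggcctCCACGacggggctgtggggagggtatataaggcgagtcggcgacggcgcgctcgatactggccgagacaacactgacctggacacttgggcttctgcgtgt
Hsp90b1, chr10:86705395-86705694, - strand: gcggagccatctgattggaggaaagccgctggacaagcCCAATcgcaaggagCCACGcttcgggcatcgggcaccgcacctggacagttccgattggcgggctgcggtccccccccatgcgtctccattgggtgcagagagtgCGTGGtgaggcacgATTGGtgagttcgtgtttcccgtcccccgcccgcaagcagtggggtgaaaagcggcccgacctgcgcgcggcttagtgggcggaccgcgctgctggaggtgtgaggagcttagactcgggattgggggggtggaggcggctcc
Calr, chr8:84846882-84847181, - strand: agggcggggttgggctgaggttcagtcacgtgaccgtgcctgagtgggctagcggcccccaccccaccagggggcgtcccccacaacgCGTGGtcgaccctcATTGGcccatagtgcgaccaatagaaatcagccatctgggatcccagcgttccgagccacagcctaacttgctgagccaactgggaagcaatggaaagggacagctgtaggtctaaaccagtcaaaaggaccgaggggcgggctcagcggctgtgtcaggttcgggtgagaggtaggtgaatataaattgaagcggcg
Herpud1, chr8:94386179-94386478, + strand: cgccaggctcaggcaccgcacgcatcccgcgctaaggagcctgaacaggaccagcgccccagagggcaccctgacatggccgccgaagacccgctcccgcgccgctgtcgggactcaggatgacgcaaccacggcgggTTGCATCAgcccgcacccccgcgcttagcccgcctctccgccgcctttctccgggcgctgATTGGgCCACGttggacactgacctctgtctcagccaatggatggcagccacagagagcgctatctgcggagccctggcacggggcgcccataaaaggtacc
The ERSE of Hspa5 ended 46 bases before the start, those of Hsp90b1 193 and 88 bases before it on opposite strands, and that of Calr 143 bases before it. In Herpud1 the ERSE-II ended 41 bases and the ATF4 element 104 bases before the start. A match of letters is a description and not a measured binding site.

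Members differed widely in level, as TPM, which allows for transcript length. Calr, a calcium-binding lectin chaperone, was the most abundant at 1699 ± 28.4 TPM in WT (SD, n = 3), followed by the disulfide isomerase gene P4hb at 1540.4 ± 4.92 TPM. Next came Hspa5, Pdia3 and Hsp90b1 at 887 ± 13.2, 872 ± 8.86 and 853 ± 15.9 TPM. Neighbours among these 3 overlapped between WT libraries, as did 13 of the 36 neighbouring pairs in the whole order, while 23 pairs did not overlap. Sensors were among the rarest: Atf6 measured 23.6 ± 0.391 TPM, Ern1 11.5 ± 0.311 TPM and the regulator Crebrf 9.64 ± 0.467 TPM. Derl3, an ERAD channel gene known from secretory cells, was lowest at 1.99 ± 0.537 TPM. Of the 37 genes, 24 exceeded 100 TPM and 8 exceeded 500 TPM in WT. Together they took 1.19%, 1.194% and 1.186% of all TPM in WT replicates 1 to 3. The share was 1.102%, 1.108% and 1.177% in KO replicates 1 to 3, below the WT range in all 3, with KO replicate 3 nearest to it.

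**Figure D1:**
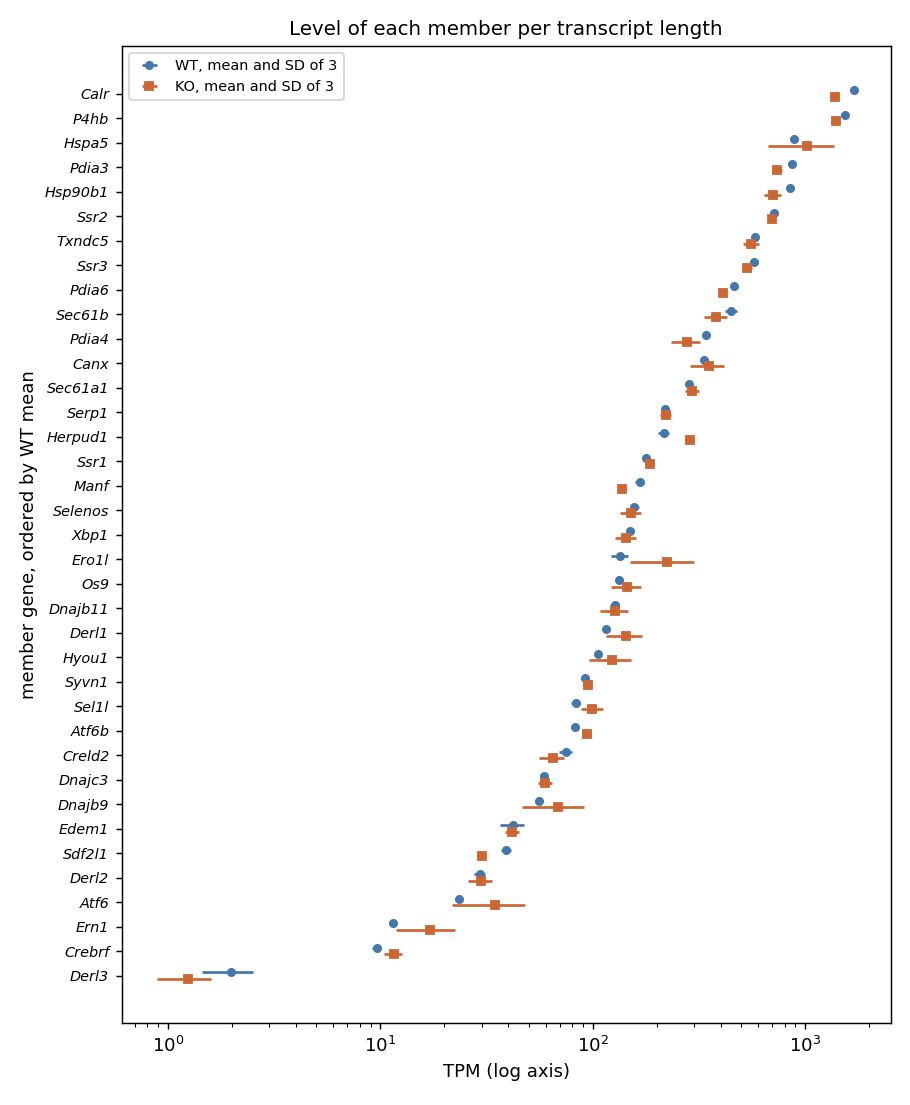
Mean TPM of each of the 37 genes (log axis) with the SD of 3 libraries, WT as circles and KO as squares, ordered by the WT mean. Levels ran from 1.99 TPM for Derl3 to 1699 TPM for Calr, and the KO bar of Hspa5 is wide (SD 345 TPM) since KO replicate 3 was high.

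Between the genotypes the differences were small and went both ways by role. Of the 37 genes, 0 were called (edgeR quasi-likelihood test, adjusted p under 0.05), where 2.51% of all tested genes were (0.884% higher and 1.63% lower in KO). The smallest adjusted p was 0.0668, for Sdf2l1, and 12 genes, 6 higher and 6 lower, had an unadjusted p under 0.05 (32.4%, against 19.2% of all genes). The DESeq2 Wald test called 9 of the 37, 2 higher (Ero1l and Herpud1) and 7 lower, beside 8.57% of all genes (3.64% higher and 4.93% lower). The groups did not overlap in 19 genes (51.4%), 8 higher and 11 lower in KO, where this held for 28.4% of all tested genes (14.0% higher and 14.5% lower). The median log2 ratio of KO to WT was -0.029 over the 37 genes and 0.0051 over all genes tested, within a range of -0.77 (Derl3) to 0.70 (Ero1l). Without KO replicate 3, 12 of the 37 were called, 4 higher (Ero1l, Atf6, Os9 and Herpud1) and 8 lower (Hsp90b1, Sdf2l1, Manf, Pdia3, Pdia4, Pdia6, Creld2 and Calr). That is 32.4%, near the 28.5% of all genes called in that fit (12.5% higher and 16.1% lower). With WT replicate 2 left out as well, 16 were called, 6 higher and 10 lower, beside 39.2% of all genes (17.5% higher and 21.7% lower). With WT replicate 1 or 3 or KO replicate 1 or 2 left out, 0 genes of the whole table were called. The count of 0 among the 37 was thus fixed in those fits. Without WT replicate 2, 176 genes were called in all and 0 of the 37.

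**Figure D2:**
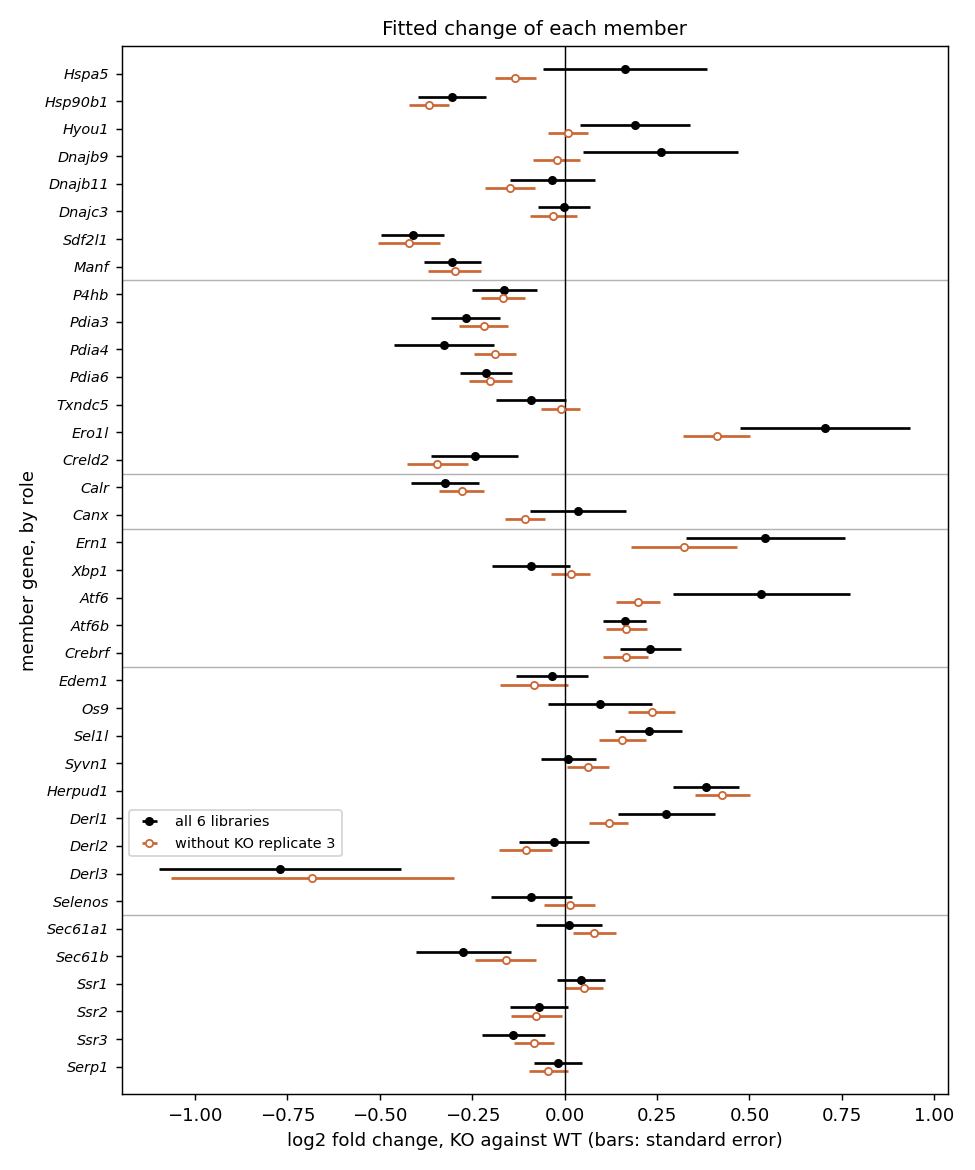
Log2 fold change of each gene, KO against WT, with its standard error, from all 6 libraries (filled) and without KO replicate 3 (open); lines part the roles. Oxidoreductases lie left of 0 except Ero1l, sensors lie right of 0 except the filled point of Xbp1, and Hspa5 moves from 0.16 to -0.13 when KO replicate 3 is left out.

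Chaperones of the ER lumen held both patterns. Hspa5 encodes BiP, the main Hsp70 of the ER, which also keeps the stress sensors inactive. It measured 1007, 1042 and 984 CPM in WT and 929, 909.5 and 1558 CPM in KO. KO replicates 1 and 2 thus lay just below every WT library, and KO replicate 3 far above all of them. The log2 ratio of KO to WT was 0.16 (SE 0.223, adjusted p = 0.754 by edgeR), and -0.13 (adjusted p = 0.116 by edgeR) without KO replicate 3. Hsp90b1 encodes GRP94, the Hsp90 of the ER, which folds integrins and growth factors. Its level was 1058, 1076 and 1038 CPM in WT and 827, 808 and 933 CPM in KO. Every KO library was below every WT library, KO replicate 3 the least so, with a log2 ratio of KO to WT of -0.30 (SE 0.0915, adjusted p = 0.151 by edgeR) and -0.37 (adjusted p = 0.00268 by edgeR) without KO replicate 3. Sdf2l1, a partner of BiP cochaperones, measured 18.4, 18.5 and 19.4 CPM in WT and 13.96, 13.98 and 14.4 CPM in KO. The KO libraries agreed closely with each other and did not overlap WT, at a log2 ratio of KO to WT of -0.41 (SE 0.0849, adjusted p = 0.0668 by edgeR). That ratio was -0.42 (adjusted p = 0.00869 by edgeR) without KO replicate 3. Manf, a secreted stress-induced protein that binds BiP, measured 156, 178 and 158 CPM in WT and 137, 129 and 132 CPM in KO. Its groups did not overlap either, at a log2 ratio of KO to WT of -0.30 (SE 0.0778, adjusted p = 0.11 by edgeR). Leaving out KO replicate 3 gave -0.30 as well (adjusted p = 0.0193 by edgeR).

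The other lumenal chaperones overlapped between the groups. Dnajb9 (ERdj4), a cochaperone that guides BiP to IRE1 and is itself an XBP1 target, measured 44.6, 48.2 and 46.3 CPM in WT and 43.7, 47.4 and 75.4 CPM in KO. As for Hspa5, KO replicate 3 alone was high, and the log2 ratio of KO to WT of 0.26 became -0.021 without it. Hyou1, the large Hsp70-like exchange factor of BiP, measured 212, 218 and 213 CPM in WT and 209, 221 and 303 CPM in KO, with the same library on top; its log2 ratio of KO to WT was 0.19, and 0.0084 without that library. The cochaperones Dnajb11 and Dnajc3 had log2 ratios of KO to WT of -0.034 (SE 0.115, adjusted p = 0.912 by edgeR) and -0.0013 (SE 0.0707, adjusted p = 0.997 by edgeR), which became -0.15 and -0.03 without KO replicate 3. Of the 8 genes of this role 3 were lower in every KO library (37.5%, against 14.5% of all genes) and 0 were higher in every one (against 14.0%).

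**Figure D3:**
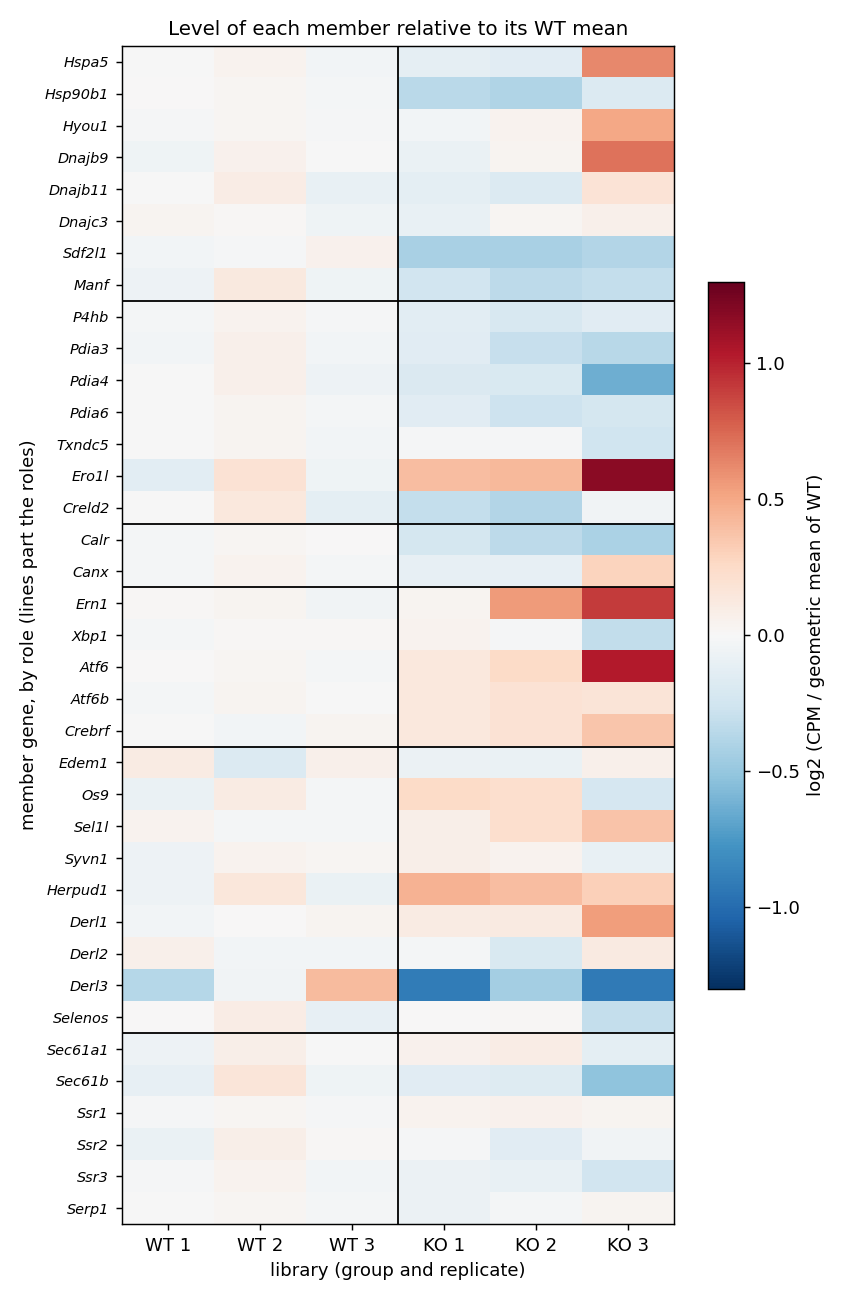
Each row is a gene and each column a library; colour gives log2 of CPM over the geometric mean of the WT libraries, and lines part the roles. KO replicates 1 and 2 resemble each other, while in KO replicate 3 Hspa5, Dnajb9, Ero1l, Ern1 and Atf6 exceed the mean of the other KO libraries by more than 0.5.

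Of the 7 thiol oxidoreductase genes 6 had estimates on the lower side in KO. P4hb, the disulfide isomerase that is also the beta subunit of collagen prolyl hydroxylase, measured 1717, 1805 and 1736 CPM in WT and 1595, 1519.7 and 1579 CPM in KO. Lower in every KO library, it had a log2 ratio of KO to WT of -0.16 (SE 0.0879, adjusted p = 0.376 by edgeR). Pdia3 (ERp57), which works with calreticulin and calnexin on glycoproteins, measured 1012, 1079.6 and 1011 CPM in WT and 930.1, 843 and 804 CPM in KO, at -0.27 (SE 0.0929, adjusted p = 0.199 by edgeR). Its ratio was -0.22 (adjusted p = 0.0427 by edgeR) without KO replicate 3. Pdia4 (ERp72) measured 377, 397 and 362 CPM in WT and 333, 330.3 and 244 CPM in KO. KO replicate 3 was the lowest of all for this gene, and the log2 ratio of KO to WT was -0.33 (SE 0.135, adjusted p = 0.264 by edgeR) with it and -0.19 (adjusted p = 0.0449 by edgeR) without. Pdia6, an isomerase that also acts on IRE1, measured 437, 450.1 and 432 CPM in WT and 398, 365 and 375 CPM in KO, at -0.21 (SE 0.0711, adjusted p = 0.186 by edgeR). Its ratio was -0.20 (adjusted p = 0.039 by edgeR) without KO replicate 3. These 4 isomerases were lower in every KO library. Over the 6 libraries edgeR called 0 of them and the DESeq2 Wald test called P4hb, Pdia3 and Pdia6 (adjusted p = 0.0352, 0.0397 and 0.024).

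Creld2, a stress-induced protein known from cartilage disease models, measured 44.4, 49.02 and 40.9 CPM in WT and 36.1, 34.2 and 43.1 CPM in KO. KO replicates 1 and 2 were below WT and KO replicate 3 was within it, with log2 ratios of KO to WT of -0.24 (SE 0.117, adjusted p = 0.323 by edgeR) and, without that library, -0.34 (adjusted p = 0.0181 by edgeR). Txndc5 (ERp46) overlapped between the groups, at 690.4 ± 18.3 in WT and 648 ± 60.9 in KO (mean CPM ± SD of 3 libraries); its log2 ratio of KO to WT was -0.091, and -0.011 without KO replicate 3. Ero1l (Ero1a in RefSeq), the oxidase that reoxidises disulfide isomerases, went the other way and is known to be induced by CHOP and by hypoxia. It measured 244, 307 and 258 CPM in WT and 355, 361 and 603 CPM in KO. Every KO library was above every WT library and KO replicate 3 the highest by far, with a log2 ratio of KO to WT of 0.70 (SE 0.231, adjusted p = 0.18 by edgeR) and 0.41 (adjusted p = 0.0135 by edgeR) without it. Of the 7 genes of this role, 4 were lower and 1 was higher in every KO library, where 14.5% and 14.0% of all genes were.

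The lectin chaperones hold newly made glycoproteins until they are folded. Calr measured 1442, 1491 and 1471 CPM in WT and 1253, 1161 and 1104 CPM in KO. The groups did not overlap, and the log2 ratio of KO to WT was -0.32 (SE 0.0915, adjusted p = 0.136 by edgeR), and -0.28 (adjusted p = 0.013 by edgeR) without KO replicate 3. Canx, its membrane-bound counterpart, measured 652 ± 19.8 in WT and 669 ± 112 in KO (mean CPM ± SD of 3 libraries). It overlapped, since KO replicate 3 (798 CPM) lay above and the other KO libraries (604 and 604 CPM) below every WT library, and the log2 ratio of KO to WT turned from 0.036 to -0.11 without KO replicate 3.

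**Figure D4:**
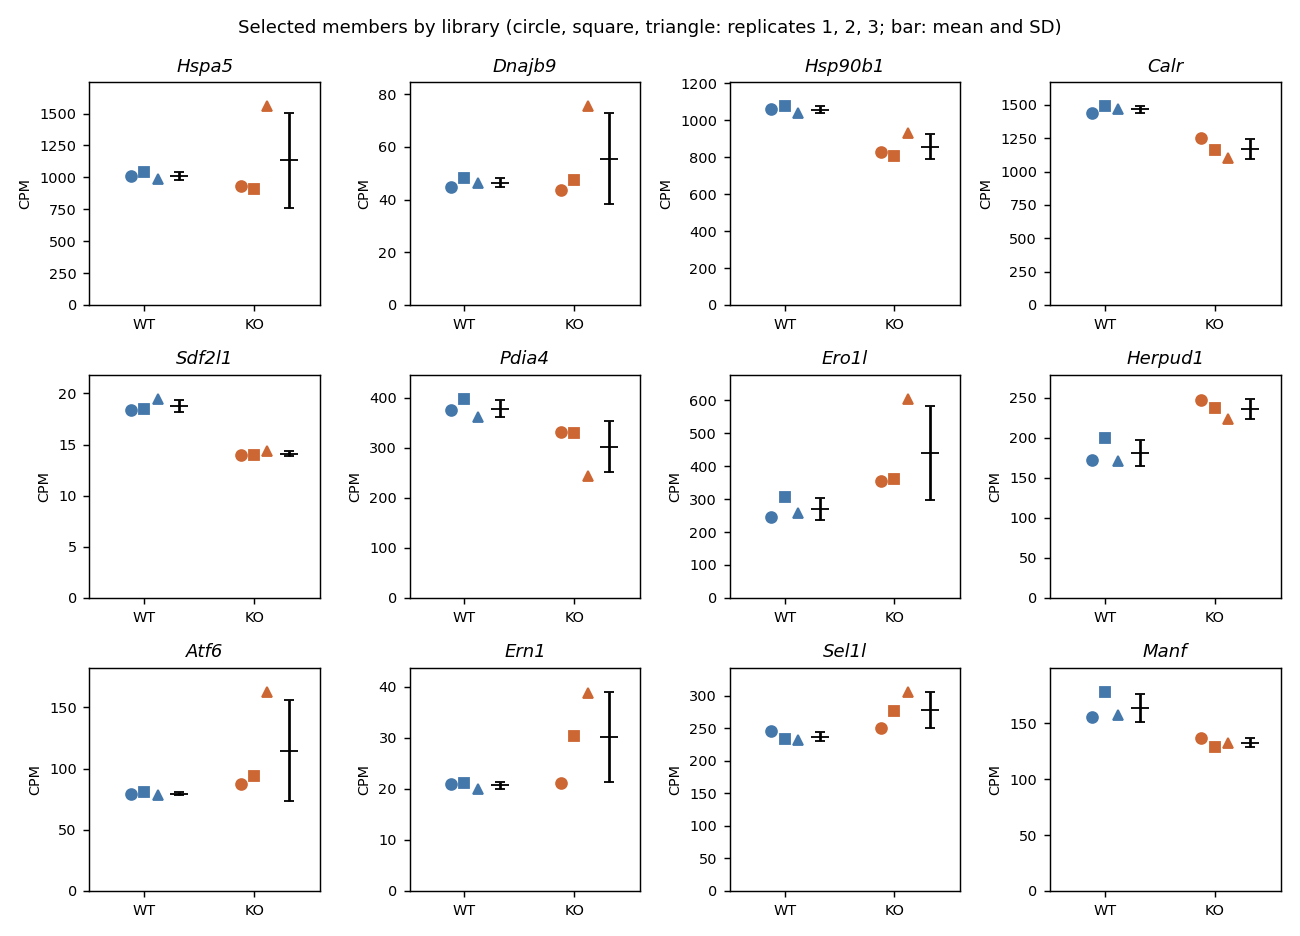
CPM of 12 members by library (axes start at 0), with replicates 1, 2 and 3 as circle, square and triangle and the mean and SD of each group beside them. Hsp90b1, Calr, Sdf2l1, Pdia4 and Manf are lower and Ero1l, Herpud1, Atf6 and Sel1l higher in every KO library, while Hspa5 and Dnajb9 are high in KO replicate 3 alone.

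Over the 6 libraries, genes of the sensors and their transcription factors had estimates on the higher side in KO, apart from Xbp1. Atf6, the sensor that becomes a transcription factor when cut in the Golgi, measured 79.4, 80.5 and 78.2 CPM in WT and 87.4, 94.3 and 163 CPM in KO. All KO libraries exceeded all WT libraries, and KO replicate 3 lay at 2.05 times the WT mean; the log2 ratio of KO to WT was 0.53 (SE 0.24, adjusted p = 0.297 by edgeR), and 0.20 (adjusted p = 0.0435 by edgeR) without that library. Its relative Atf6b measured 92.9, 97 and 93.97 CPM in WT and 104, 108 and 106 CPM in KO. This step was small but even over the KO libraries, at 0.16 (SE 0.0582, adjusted p = 0.208 by edgeR). Ern1, which encodes IRE1, measured 20.9, 21.2 and 19.98 CPM in WT and 21.1, 30.4 and 38.8 CPM in KO. KO replicate 1 lay within the WT range, so the groups overlapped, and the log2 ratio of KO to WT was 0.54 (SE 0.215, adjusted p = 0.245 by edgeR), and 0.32 (adjusted p = 0.132 by edgeR) without KO replicate 3. Crebrf, a regulator that opposes the related factor CREB3, measured 32.9, 32.2 and 33.8 CPM in WT and 36.1, 37.6 and 42.3 CPM in KO, higher in every KO library, at 0.23 (SE 0.0826, adjusted p = 0.208 by edgeR).

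Xbp1 itself measured 148, 152 and 152 CPM in WT and 155, 149 and 120.1 CPM in KO. KO replicate 3 was the lowest library and the others were alike, with a log2 ratio of KO to WT of -0.091 (SE 0.106, adjusted p = 0.706 by edgeR), and 0.017 without that library. The transcript table lists 2 RefSeq transcripts of Xbp1, of which one is known as the spliced form; the counts that it received per TPM were 1.23% lower than those of the other, as for a slightly shorter transcript. Its share of Xbp1 estimated counts, with the 95% Wilson interval for counting error, was 2.48% (1.97% to 3.11%), 4.16% (3.48% to 4.97%) and 5.53% (4.77% to 6.45%) in WT replicates 1 to 3. It was 3.82% (3.18% to 4.59%), 3.22% (2.61% to 3.94%) and 9.60% (8.48% to 10.8%) in KO replicates 1 to 3. Each interval takes all Xbp1 estimated counts as observed, although only reads over the removed segment tell the forms apart, so it is too narrow. The share of KO replicate 3 was above those of the other 5 libraries, and KO replicates 1 and 2 lay within the WT range. The difference of the means, KO minus WT, was 1.49 percentage points (p = 0.7 by a two-sided exact permutation test, whose smallest p is 0.1 here), and it turned to -0.542 without KO replicate 3 (exact permutation p = 0.8). The lowest Xbp1 level and the highest spliced share stood in the same library, which also held the highest Hspa5, Dnajb9 and Hyou1. Other members went the other way there: Calr, Pdia3 and Pdia4 were lowest in that library. Sdf2l1 and Manf lay below every WT library in it, as they also did in KO replicates 1 and 2.

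**Figure D5:**
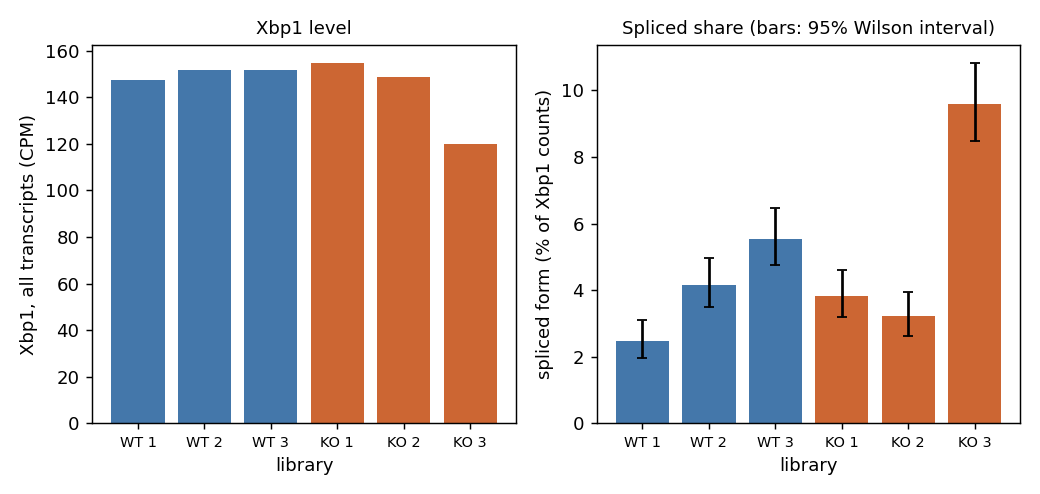
Left, CPM of Xbp1 in each library, and right, the share of Xbp1 estimated counts on the spliced transcript with 95% Wilson intervals. The intervals take all Xbp1 counts as observed and are too narrow, since not all reads tell the forms apart. KO replicate 3 has the lowest level, 120.1 CPM, and the highest share, 9.60%.

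Of the ERAD genes, which draw misfolded proteins back to the cytosol for the proteasome, Herpud1 had the smallest p. It encodes a membrane scaffold of the HRD1 complex that is induced by ATF6, XBP1 and ATF4, and it is the gene whose promoter above held both ERSE-II and the ATF4 element. Any part of these letters in the level of Herpud1 was not tested. Dnajb11, the other gene with ERSE-II letters, had a log2 ratio of KO to WT of -0.034. Its letters lay after the transcription start, whereas those of Herpud1 lay before it, so the sites differ in place. Herpud1 measured 173, 199.8 and 170.4 CPM in WT and 247, 238 and 223 CPM in KO. All KO libraries exceeded all WT libraries, and unlike for Hspa5, KO replicate 3 was the lowest of the KO group. The log2 ratio of KO to WT was 0.38 (SE 0.0892, adjusted p = 0.0879 by edgeR), and 0.43 (adjusted p = 0.00519 by edgeR) without KO replicate 3. Sel1l, the adaptor that holds the HRD1 ubiquitin ligase together, measured 246, 234 and 233 CPM in WT and 251, 277 and 306 CPM in KO, higher in every KO library, at 0.23 (SE 0.0904, adjusted p = 0.248 by edgeR). The ligase gene itself, Syvn1, was at 131 ± 5.45 in WT and 131 ± 8.06 in KO (mean CPM ± SD of 3 libraries), with overlap. Derl1, a channel protein of the complex, measured 160.0, 164 and 168 CPM in WT and 177, 178 and 239.7 CPM in KO, again without overlap, at 0.27 (SE 0.131, adjusted p = 0.322 by edgeR). KO replicate 3 was the highest, and without it the ratio was 0.12 (adjusted p = 0.131 by edgeR).

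Os9, a lectin that delivers misfolded glycoproteins to the ligase, measured 224, 255 and 233 CPM in WT and 282, 275 and 203 CPM in KO. KO replicates 1 and 2 were above WT and KO replicate 3 below it, so that the log2 ratio of KO to WT was 0.10 (SE 0.14, adjusted p = 0.77 by edgeR) over all libraries and 0.24 (adjusted p = 0.0294 by edgeR) without KO replicate 3. Edem1, which acts on the mannose of glycoproteins bound for degradation and is an XBP1 target, overlapped between the groups, at 112 ± 11.5 in WT and 109 ± 6.75 in KO (mean CPM ± SD of 3 libraries). Derl2, a relative of Derl1, also overlapped, at 48.8 ± 1.91 in WT and 47.9 ± 5.25 in KO (mean CPM ± SD of 3 libraries). So did Selenos, a selenoprotein that recruits the ATPase p97, at 81.6 ± 5.52 in WT and 76.7 ± 9.42 in KO (mean CPM ± SD of 3 libraries). Without KO replicate 3 the log2 ratios of KO to WT of Edem1, Derl2, Selenos and Syvn1 went from -0.035, -0.029, -0.09 and 0.0098 to -0.084, -0.11, 0.013 and 0.063. Derl3 was scarce, at 0.864, 1.09 and 1.49 CPM in WT and 0.598, 0.823 and 0.593 CPM in KO, that is, 17, 20, 28 counts in WT and 11, 15, 12 in KO. Lower in every KO library, it had a log2 ratio of KO to WT of -0.77 (SE 0.327, adjusted p = 0.273 by edgeR). Of the 9 ERAD genes 3 were higher and 1 was lower in every KO library, beside 14.0% and 14.5% of all genes.

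Translocation genes had log2 ratios of KO to WT between -0.27 and 0.044. Sec61a1, the pore of the channel, was at 391 ± 19 in WT and 394 ± 32.2 in KO (mean CPM ± SD of 3 libraries), a log2 ratio of KO to WT of 0.011 (SE 0.0895, adjusted p = 0.966 by edgeR). Its small partner Sec61b measured 93.1, 112 and 96.2 CPM in WT and 90.1, 89.2 and 69.7 CPM in KO, lower in every KO library, at -0.27 (SE 0.129, adjusted p = 0.315 by edgeR). Among the subunits of the translocon-associated TRAP complex, Ssr3 measured 740.3, 774 and 729.6 CPM in WT and 708, 701 and 628 CPM in KO, lower in every KO library, and Ssr1 426, 439 and 425 CPM in WT and 442, 447 and 440.4 CPM in KO, higher in every one by a narrow margin. Their log2 ratios of KO to WT were -0.14 (SE 0.0851, adjusted p = 0.434 by edgeR) and 0.044 (SE 0.0648, adjusted p = 0.772 by edgeR). Ssr2 and Serp1, a stress-associated protein of the translocon, overlapped between the groups, at -0.07 and -0.018. Without KO replicate 3 the ratios were -0.16 for Sec61b, -0.083 for Ssr3, 0.081 for Sec61a1 and -0.044 for Serp1. None of the 6 had an unadjusted p under 0.05 over all libraries.

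Averaged by role, relative to the WT mean of each gene on the log2 CPM scale, the sensors and regulators lay at -0.0077, 0.014 and -0.0063 in WT and 0.10, 0.23 and 0.43 in KO. Every KO library was thus above WT, KO replicate 3 most. Lumenal chaperones lay at -0.018, 0.047 and -0.029 in WT and -0.19, -0.17 and 0.15 in KO. Here KO replicates 1 and 2 were below WT and KO replicate 3 was above it. Oxidoreductases lay at -0.032, 0.083 and -0.051 in WT and -0.076, -0.13 and -0.073 in KO. The 2 lectin chaperones lay at -0.025, 0.036 and -0.011 in WT and -0.17, -0.22 and -0.06 in KO, so both of these roles were below WT in every KO library. ERAD genes lay at -0.043, 0.013 and 0.03 in WT and -0.0033, 0.032 and -0.014 in KO. Translocation genes lay at -0.048, 0.069 and -0.021 in WT and -0.037, -0.045 and -0.15 in KO. In these 2 roles the groups overlapped. The ERAD mean weighs the scarce Derl3 like the other genes, at -0.37, -0.041 and 0.41 in WT and -0.91, -0.44 and -0.92 in KO. Derl3 drew that mean down in every KO library, so its overlap says little of the other ERAD genes. KO replicate 3 was further than 0.5 (log2) above the mean of KO replicates 1 and 2 in 5 of the 37 genes, Atf6 (1.79 times that mean), Hspa5 (1.69), Ero1l (1.69), Dnajb9 (1.65) and Ern1 (1.51), where 17.4% of all genes were. It was that far below in 0 of the 37, where 17.1% of all genes were. WT replicate 2 was within 0.5 of the mean of the other WT libraries in all 37, whereas 10.8% of all genes lay further away.

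Values of Ddit3 and Atf4, which lie downstream of phosphorylated eIF2alpha whichever kinase acts, stood beside these. Ddit3, which encodes CHOP, measured 106, 142 and 105 CPM in WT and 167, 156 and 226 CPM in KO. All KO libraries were above all WT libraries and KO replicate 3 was the highest, at a log2 ratio of KO to WT of 0.64 (SE 0.187, adjusted p = 0.145 by edgeR), and 0.46 (adjusted p = 0.0285 by edgeR) without that library. Atf4 measured 385, 457 and 404 CPM in WT and 587, 552 and 651 CPM in KO, also without overlap, at 0.52 (SE 0.105, adjusted p = 0.0622 by edgeR), and 0.46 (adjusted p = 0.00425 by edgeR) without KO replicate 3.

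A wider list of 86 other genes of ER folding, glycosylation, ERAD and export was read in the same fit, and all 86 were tested. Of these 0 rose and 1 fell, Pdia5, another disulfide isomerase, which measured 60.6, 60.2 and 60.04 CPM in WT and 48.6, 42.5 and 43.4 CPM in KO, a log2 ratio of KO to WT of -0.43 (SE 0.0735, adjusted p = 0.0466 by edgeR). Settings that lost this call included limma-voom, library size only, no filter, and the absence of any single library other than KO replicate 3 (adjusted p = 0.0515, 0.0534, 0.0577 and, over those 5 libraries, 0.0989 to 0.244). With WT replicate 1 or 3 or KO replicate 1 or 2 left out, 0 genes of the whole table were called. An unadjusted p under 0.05 was found for 16 of the 86 genes, 5 higher and 11 lower (18.6%, near the 19.2% of all genes). The groups did not overlap in 26 genes (30.2%), 10 higher and 16 lower, near the 28.4% of all genes, and the median log2 ratio of KO to WT was -0.031. Of genes on the higher side, Sec61a2, a second channel gene, and Mbtps1, the protease that makes the first cut in ATF6, had the smallest p, at 0.36 (SE 0.0841, adjusted p = 0.0907 by edgeR) and 0.28 (SE 0.0698, adjusted p = 0.103 by edgeR). With KO replicate 3 left out, 8 of these 86 genes rose and 9 fell (19.8%, below the 28.5% of all genes in that fit).

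The transcript table also showed how the counts of each gene were divided. For 19 of the 37 genes 1 transcript was listed and for 18 several, and in 9 of these 18 the main transcript held over 90% of the counts in every library. The main transcript of Hspa5 took 88.8%, 88.8% and 87.5% in WT and 90.5%, 87.4% and 88.4% in KO, so KO replicate 3, where Hspa5 was high, lay within the range of the other libraries. Atf6 was split between its curated RefSeq transcript, with 65.6%, 51.4% and 64.5% in WT and 64.3%, 69.6% and 56.2% in KO, and a predicted transcript. WT replicate 2 and KO replicate 3 had the lowest shares of the curated transcript, and the groups overlapped. For the TRAP subunit gene Ssr1, the curated transcript took 20.2%, 20.7% and 20.5% in WT and 21.9%, 22.99% and 22.6% in KO. Every KO library was above every WT library for Ssr1, the rest going to a predicted transcript. Of the 18 genes with several transcripts, 4 had a transcript whose share did not overlap between the groups, Dnajb11, Canx and Crebrf besides Ssr1. This held for 6 of their 53 transcripts. The share over all genes of the table was not computed, so these counts are no result about the members. Such divisions are estimates of the counting program, and no test was made on them.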

How the data were processed

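RNA-seq of 6 libraries was used, 3 WT and 3 KO, grouped by title. Per the labels' protocols, reads were aligned to mm10 with STAR 2.7.5a and counted with featureCounts 2.0.0 against GENCODE vM25, and DESeq2 1.28.1 compared the groups. The deposited tables do not look like that output: they hold RefSeq transcripts (56077) and Entrez genes with estimated counts, 12.9% of them not whole, and the program that made them is not given in the sources used here. The authors also deposited TPM, read here for levels between genes and transcript ratios, and FPKM, not used here.

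Estimated counts were rounded. Genes were kept by filterByExpr (minimum count 10, total 15), scaled by TMM and tested by the edgeR quasi-likelihood method over 13692 genes, two-sided, with Benjamini-Hochberg adjustment; a call is an adjusted p under 0.05, and rose and fell mean a call. CPM used TMM-scaled totals. Versions were DESeq2 1.42.0, edgeR 4.0.16 and limma 3.58.1 under R 4.3.3 with the data.table package (1.17.8), and Python 3.11.15, pandas 2.3.3, scipy 1.17.1 and matplotlib 3.10.9. The common dispersion was 0.0525, and the script was tested on data simulated with it. There 45 of 100 2-fold changes and 96 of 100 4-fold changes were called. A count of 0 called among the 37 genes thus does not mean that none changed. The 37 genes, the roles, the wider list, the marker lists and the rule for named genes were chosen with earlier results of these data known. By that rule all 37 are described, with values per library where groups do not overlap or a call is made with or without KO replicate 3, and up to 3 called genes a direction of the wider list, or the 2 with the smallest p. Alternatives were DESeq2 size factors, limma-voom, the Wald test of DESeq2, no scaling beyond library size, other filters, the replicate number as a block and libraries left out. Reads of near-identical copies may be split between genes, and whether strand was used is not given. Counting intervals cover counting error only and take every estimated count as an observed read, which makes them too narrow.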

Additional observations from a re-analysis of the deposited data

How the results depend on the processing

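Of the 37 genes, 0 were called with all 6 libraries by edgeR, and 0 with DESeq2 size factors, library size only, limma-voom, either filter or the replicate block. The DESeq2 Wald test called 9, and 16 were called (6 higher, 10 lower) without KO replicate 3 and WT replicate 2, where 39.2% of all genes were. With 1 library left out in turn the count ran from 0 to 12. Without WT replicate 1 or 3 or KO replicate 1 or 2, however, 0 genes of the whole table were called. In the wider list of 86 genes, 1 was called by edgeR, 8 by the DESeq2 Wald test, 0 with library size only, limma-voom, no filter or the replicate block, and 22 with both those libraries left out; it ran from 0 to 17 with 1 library left out. Replicate numbers are shared by the groups, but same-numbered libraries deviated together at -0.143, 0.215 and 0.238 across genes, so the numbers were not taken as pairs; under the replicate block 5 genes of the whole table were called. The cause of these shifts was not tested.

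The difference in the Xbp1 spliced share ran from -0.542 to 2.65 percentage points with 1 library left out, and was reversed, at -0.542, without KO replicate 3 alone. As a share of TPM it was 1.501. Over 41 named genes and 14 alternatives, 573 fold changes were computed, of which 32 turned their sign, all in 13 uncalled genes. With libraries left out, those that turned ran from -0.133 to 0.3005 for Hspa5, -0.0211 to 0.407 for Dnajb9, -0.148 to 0.0349 for Dnajb11, -0.0304 to 0.0441 for Dnajc3, -0.13 to 0.0026 for Txndc5, -0.107 to 0.106 for Canx, -0.16 to 0.0171 for Xbp1, -0.171 to 0.0216 for Edem1, -0.0243 to 0.079 for Syvn1, -0.129 to 0.051 for Derl2, -0.144 to 0.0537 for Selenos, -0.0328 to 0.112 for Sec61a1 and -0.044 to 0.011 for Serp1. Under DESeq2 size factors the sign turned for Dnajc3 (0.0014). Under library size only the sign turned for Dnajc3 (0.0206) and Serp1 (0.0041). Under the DESeq2 Wald test the sign turned for Dnajc3 (0.0015). Under at least 1 CPM in all libraries the sign turned for Syvn1 (-0.0037) and Sec61a1 (-0.0021). The common dispersion of 0.0525 (a coefficient of variation of 22.9%) and 3 libraries a group limit the precision of all values.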
